A study of Mus musculus with 4 samples.

Results

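The genes described are 50 genes of DNA replication and replication-linked repair in mouse muscle satellite cells (MuSCs), the stem cells of skeletal muscle. They were chosen by name from the gene symbols of the count table, and all 50 were found among its 19353 genes. The set covers origin licensing, helicase activation, the sliding clamp and its loader, polymerases, Okazaki fragment joining and chromatin assembly, nucleotide supply, repair of replicating DNA, and regulators of S phase. The names were chosen without a measured value in the rule.

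The question was how MuSCs respond when their muscle is overloaded. The plantaris was overloaded by tenotomy, the cutting of the distal tendons of the gastrocnemius and soleus, and sham muscle received only the skin incision. Both groups came from Pax7-CreERT2:Rosa-YFP mice given tamoxifen, in which YFP marks cells where the Pax7-driven Cre has acted, and cells were sorted by YFP at 4 days. RNA was read by CEL-Seq2, which counts the 3′ ends of transcripts with unique molecular identifiers (UMIs), from tubes of 100 cells, with 2 libraries per group. The age of the mice is not given in the sources used here. Whether separate mice gave the libraries within each group, or the same mice gave sham and tenotomy libraries, is not stated there, so the p-values measure only the spread between these libraries, which may be technical. Depth was 269683 and 260488 UMIs for sham, against 387955 and 483528 for tenotomy.

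To copy its genome once per division, a cell loads pairs of ring-shaped MCM helicases at origins in G1 phase, activates them in S phase with Cdc45 and the GINS complex, and then copies both strands with polymerases held on DNA by the PCNA clamp. The lagging strand is made in short Okazaki fragments that are joined by a ligase, while ribonucleotide reductase and thymidylate synthesis supply the building blocks. MuSCs of resting adult muscle are largely quiescent and make little of this machinery, and E2F transcription factors are known to drive many of these genes when a cell commits to S phase.

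Most of the replication genes had more UMIs after tenotomy. The 50 genes summed to 238 and 198 UMIs in the sham libraries and to 1123 and 1333 UMIs in the tenotomy libraries. As a share of the library this was 8.83 (95% exact binomial interval 7.74 to 10.02) and 7.60 (6.58 to 8.74) per 10000 UMIs in sham, and 28.9 (27.3 to 30.7) and 27.6 (26.1 to 29.1) per 10000 UMIs after tenotomy. The groups did not overlap. The mean share rose from 8.21 ± 0.866 to 28.3 ± 0.975 per 10000 UMIs (SD, n = 2), a ratio of 3.44, for which the two-sided exact permutation test gave p = 0.33, the smallest that 2 libraries against 2 allow. Per tube of 100 cells, the sum was 218 ± 28.3 UMIs in sham and 1228 ± 148 UMIs after tenotomy, a ratio of 5.63. In tubes of cells, fewer cells that express a gene and less of its RNA per cell cannot be told apart. Such intervals, and the floors used below, cover counting error only.

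Of the 50 genes, 33 were detected in each sham library, 49 in the first tenotomy library and 48 in the second. With every library thinned in expectation to the smallest depth, the numbers were 32.9, 33, 48.2 and 47.0. A group of 13 genes had no UMI in either sham library, where 19.9% of all 19353 genes had none. Of the 50, 10 had no sham UMI and at least 1 in both tenotomy libraries, beside 6.33% of the 19353 genes. A further 11 had 1 to 3 sham UMIs in all, and 26 had more than 3. In CPM, counts per 1000000 UMIs of a library size scaled by TMM, 3 UMIs corresponded to 13.1 and 13.6 in the sham libraries, and to 7.80 and 6.08 in the tenotomy libraries. Both tenotomy libraries exceeded both sham libraries in CPM for 41 of the 50 genes, beside 27.6% of all genes and 37.5% of the genes tested below. The exceptions were Orc1, Orc2, Rfc4, Pold3, Fen1, Chaf1a and Ccne2, whose groups overlapped, and Pcna and Slbp, which were lower in both tenotomy libraries.

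**Figure D1:**
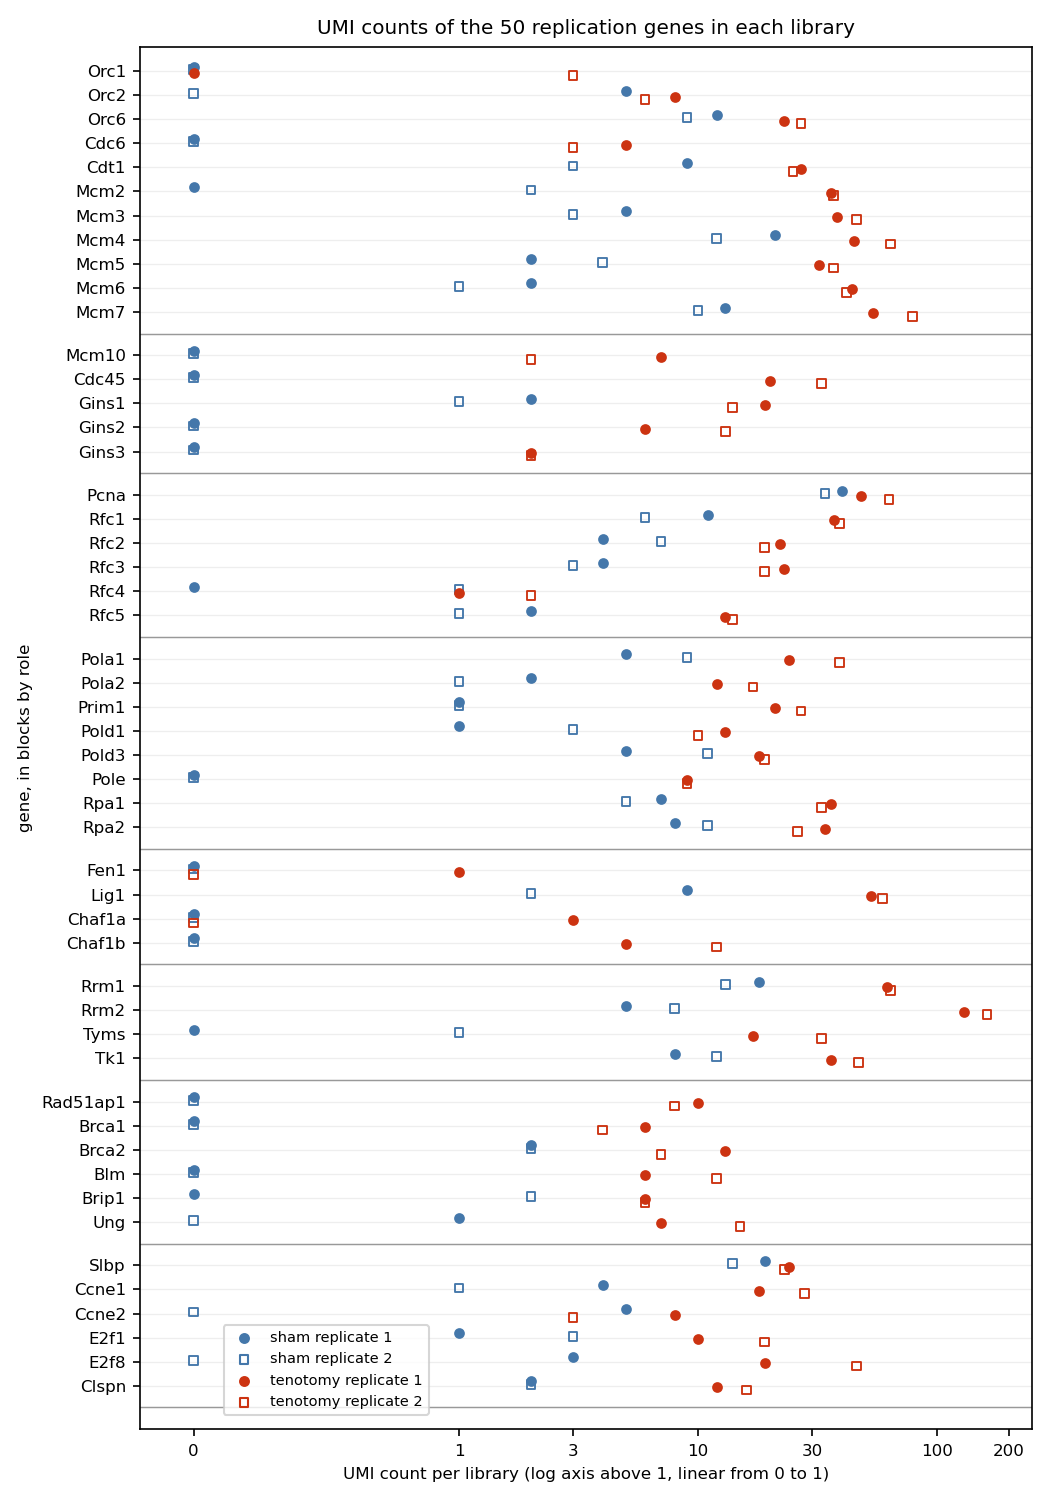
UMI counts of the 50 genes in each library, in blocks by role, on an axis that is logarithmic above 1 and linear from 0 to 1. Blue marks are the 2 sham libraries and red marks the 2 tenotomy libraries (counts are not scaled for depth), and 13 genes have both blue marks at 0.

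Genes were tested by the quasi-likelihood method of edgeR, with adjustment by Benjamini-Hochberg over 7228 genes and a threshold of 0.1. At that threshold 25.8% of all tested genes were called higher after tenotomy and 26.3% lower, and higher calls made up 49.6% of all calls. Scaled by library size alone they were 66.6%, and without scaling, as UMIs per tube, 93.1%. Of the 50 replication genes 28 passed the filter, and 22 of these were called higher, 0 were called lower, and 6 were not called (Orc6, Pcna, Rfc2, Pold3, Rpa2 and Slbp). No tested member fell at an unadjusted p under 0.05 either. DESeq2 called 18 of 40 members higher, beside 9.34% of the genes it tested, and 0 lower, beside 11.7%. As UMIs per tube 26 of 28 were higher, beside 62.0% of tested genes, and 0 lower, beside 4.58%. The filter asks for about 30.4 counts per 1000000 UMIs in at least 2 libraries, on library sizes not scaled by TMM, unlike the CPM given here, and 22 of the 28 tested genes were under this level in at least 1 sham library, so that they passed only with the help of the tenotomy libraries. For 14 of them both sham libraries were under it, and these had to be higher after tenotomy to be tested. Counts among tested genes are therefore descriptions. On that scale only 6 tested genes (Orc6, Mcm4, Mcm7, Pcna, Rrm1 and Slbp) reached it in both sham libraries, and 3 of them (Mcm4, Mcm7 and Rrm1) were called higher. The median log2 fold change was 1.58 over the 28 genes, with a range from -0.44 to 7.33, and 0.05 over all tested genes. The other 22 genes, with 1 to 36 UMIs over the 4 libraries, were not tested, and when the filter was dropped 12 of these were called higher, for 34 of 50 genes in all beside 12.7% of the 19353 genes, and 0 lower beside 9.32%. Of these 12, DESeq2 called Gins2, Pole, Rad51ap1 and Blm, did not call Gins1 (adjusted p = 0.11), Rfc5 (0.19), Pold1 (0.37), Ung (0.17) and E2f1 (0.25), and gave no adjusted p for Mcm10, Chaf1b and Brca1.

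**Figure D2:**
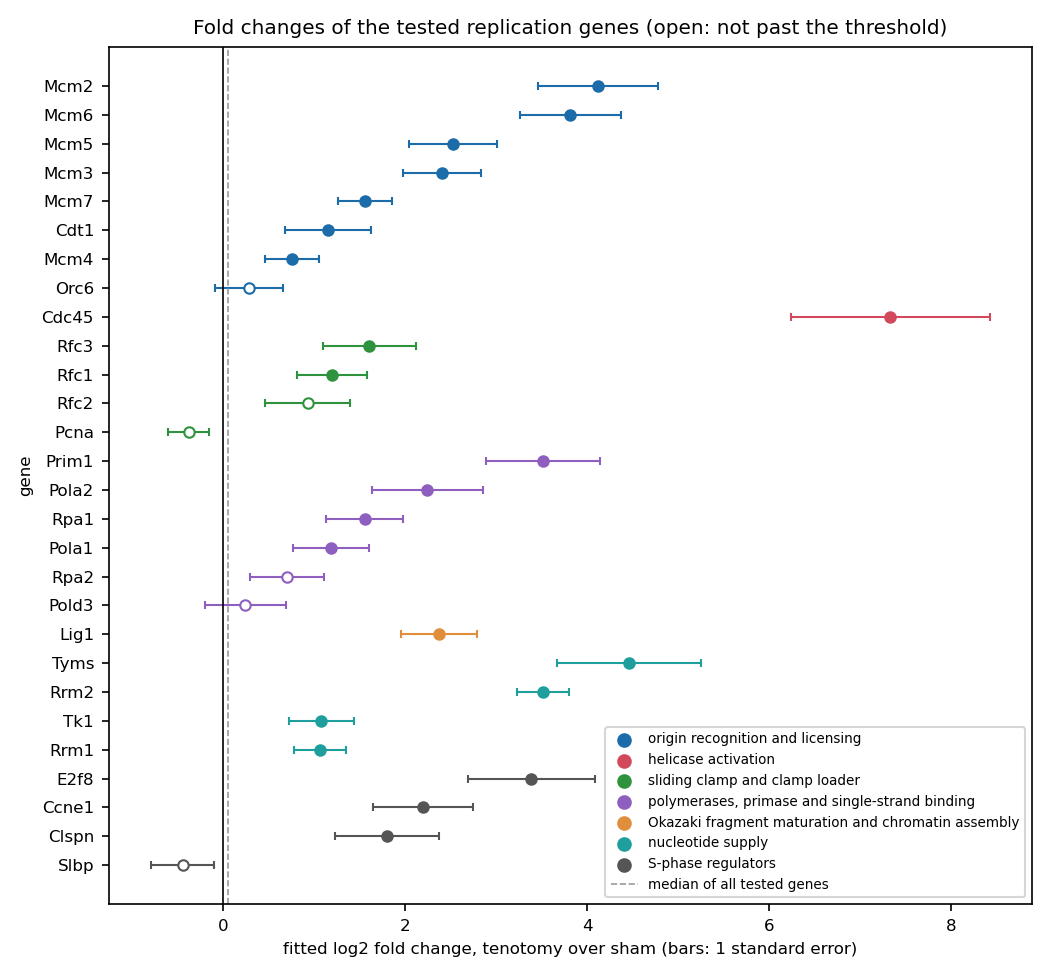
Fitted log2 fold changes of the 28 tested genes, tenotomy over sham, by role, with bars of 1 standard error and open marks for genes not past the threshold. Values run from -0.44 for Slbp to 7.33 for Cdc45, whose value depends on the prior count because both sham libraries were at 0, and the dashed line is the median of all tested genes, 0.05.

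At origins, the genes of the MCM ring were called higher, beside 25.8% of all tested genes. Mcm2, Mcm3, Mcm5 and Mcm6 were under the level of the filter in both sham libraries. They had to be higher after tenotomy to be tested. Of the origin recognition genes only Orc6 could be tested and was not called. Mcm2 to Mcm7 encode the subunits of the ring, which together form the replicative helicase. Mcm7 had 13 and 10 UMIs in sham against 54 and 79 after tenotomy. Its level was 50.9 ± 7.98 CPM in sham and 150 ± 13.8 CPM after tenotomy (SD, n = 2), with a log2 fold change of 1.56 (SE 0.29, adjusted p = 4.4e-04). These values are uncertain, because Mcm7 overlaps Cops6 (6, 4, 67 and 88 UMIs) at its 3′ end on the other strand. Mcm4 had 21 and 12 UMIs in sham against 45 and 64 after tenotomy. Its level was 72.9 ± 26.2 CPM against 123 ± 8.91 CPM (SD, n = 2), with a log2 fold change of 0.76 (SE 0.30, adjusted p = 0.046). The groups did not overlap for either gene, but the call of Mcm4 was lost without sham replicate 2 (log2 fold change 0.40, adjusted p = 0.42) and without tenotomy replicate 2 (0.72, adjusted p = 0.14).

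The other MCM genes were scarce in sham. Mcm3 had 5 and 3 UMIs in sham against 38 and 46 after tenotomy, or 17.7 ± 5.78 and 96.0 ± 4.0 CPM (SD, n = 2), with a log2 fold change of 2.41 (SE 0.43, adjusted p = 2.8e-04). Mcm5 had 2 and 4 UMIs in sham against 32 and 37 after tenotomy (log2 fold change 2.53, SE 0.48, adjusted p = 5.1e-04). Sham and tenotomy libraries did not overlap for either gene. Mcm2, with 0 and 2 UMIs in sham against 36 and 37 after tenotomy, was 18.7-fold higher by its counts (95% exact binomial interval 5.0 to 157), with an adjusted p of 1.1e-04. Mcm6, with 2 and 1 UMIs in sham against 44 and 42 after tenotomy, was 14.7-fold higher (4.86 to 72.7), with an adjusted p of 4.1e-05. The fitted log2 fold changes of these 2 genes were 4.12 and 3.81, and that of Mcm2 moved to 3.12 without sham replicate 1 and to 7.94 without sham replicate 2, where only a library at 0 was left in the sham group.

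After tenotomy, the genes that mark and prepare origins gave smaller counts than the MCM genes. Orc1, Orc2 and Orc6 encode subunits of the origin recognition complex, which marks the places where MCM rings are loaded. Orc6 had 12 and 9 UMIs in sham against 23 and 27 after tenotomy, or 46.5 ± 8.11 and 57.2 ± 3.62 CPM (SD, n = 2), with a log2 fold change of 0.29 (SE 0.37, adjusted p = 0.56). Orc2 had 5 and 0 UMIs in sham against 8 and 6 after tenotomy, with overlapping groups and a ratio of 1.44 (0.489 to 5.09), and Orc1 had 3 UMIs in 1 tenotomy library and 0 elsewhere. Cdt1 and Cdc6 encode the factors that bring the rings to the recognition complex. Cdt1 had 9 and 3 UMIs in sham against 27 and 25 after tenotomy (log2 fold change 1.15, SE 0.47, adjusted p = 0.057). That call was lost without sham replicate 2 (0.56, adjusted p = 0.44) and without tenotomy replicate 1 (0.94, adjusted p = 0.23), and without sham replicate 1 the value was 2.07. Cdc6 had 0 UMIs in sham and 5 and 3 after tenotomy, at least 1.37-fold higher against a floor of 3 UMIs over the sham group.

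Promoters of this family are shown because E2F factors are known to bind many of them. In the RefSeq sequence of GRCm38.p6, windows of 250 bases upstream of the start were searched on both strands for the letters TTTCCCGC and TTTGGCGC, which are forms of the E2F site. Of 44 members with such a window, 7 (15.9%) held a match (Brca2, Cdc6, Gins3, Mcm5, Mcm6, Mcm7 and Pola1), compared with 1.51% of the 27025 genes with a window. Among members called higher the number was 4 of 21, among tested members not called it was 0 of 5, and among members not tested it was 3 of 18. In the other replication genes listed it was 10 of 66, and among 34 mitotic genes, of which 29 had a window, it was 1 (3.45%). The stretches of the 4 called genes follow, 5′ to 3′ on the strand of the gene, with the match in capitals. A match is a description of these letters, and no binding was measured.
Mcm7, chr5:138172030-138172059, minus strand, within annotated exons of Ap4m1 and Mcm7: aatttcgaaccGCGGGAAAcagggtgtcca
Mcm6, chr1:128359719-128359778, minus strand, outside annotated genes: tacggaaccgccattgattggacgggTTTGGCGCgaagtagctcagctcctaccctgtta
Pola1, chrX:93632260-93632319, minus strand, outside annotated genes: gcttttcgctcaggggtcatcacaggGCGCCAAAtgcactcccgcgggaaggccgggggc
Mcm5, chr8:75109334-75109393, plus strand, outside annotated genes: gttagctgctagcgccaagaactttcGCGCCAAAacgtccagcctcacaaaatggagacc

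By the start that RefSeq gives for the window, the match began 165 bases upstream for Mcm7, 47 bases upstream of Mcm6, 138 bases upstream of Pola1 and 149 bases upstream of Mcm5. In GENCODE M21 the gene Mcm7 begins farther upstream (chr5:138164583-138172422, minus strand), so its stretch lies within the annotated gene. Mcm6 held another match in its window. Mcm2 and Mcm3, which were also called higher, had no match in their windows, and Mcm4 had no window to search.

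The genes of helicase activation were nearly uncounted in sham. Cdc45 and the GINS subunits join the MCM ring to form the active helicase, and Mcm10 helps to start it. The 5 genes summed to 8.71 and 4.53 CPM in the sham libraries and to 140 and 130 CPM in the tenotomy libraries. Cdc45, on chromosome 16, had 0 UMIs in both sham libraries and 20 and 33 after tenotomy, at least 9.06-fold higher against the floor of 3 UMIs over the sham group (adjusted p = 6.8e-05). Gins1 had 2 and 1 UMIs in sham against 19 and 14 after tenotomy, a ratio of 5.64 (1.77 to 28.7), and Gins2 had 0 in sham and 6 and 13 after tenotomy, at least 3.25-fold higher. Gins1 and Gins2 did not pass the filter. Without it their adjusted p was 0.0029 and 9.4e-04. Mcm10 had 0 UMIs in sham and 7 and 2 after tenotomy, at least 1.54-fold higher, and Gins3 had 2 in each tenotomy library, below the floor.

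Pcna, the sliding clamp that holds polymerases on DNA, was not called in either direction. Pcna (chr2:132249162-132253314, minus strand, GRCm38) had 40 and 34 UMIs in sham against 48 and 63 after tenotomy. Its level was 164 ± 14.2 CPM in sham and 126 ± 1.96 CPM after tenotomy (SD, n = 2). The log2 fold change was -0.38 (SE 0.22, adjusted p = 0.18), and as UMIs per tube, where the median of all tested genes was 1.01, it was 0.58 (adjusted p = 0.12). Pcna made up 17.0% of all UMIs of the 50 genes in sham (95% exact binomial interval 13.6 to 20.8) and 4.52% after tenotomy (3.73 to 5.42). Its value is uncertain, because the table also lists Pcna-ps2, a processed pseudogene on chromosome 19, and reads of near-identical copies can be split by the counting. Pcna-ps2 had 48 and 45 UMIs in sham against 76 and 117 after tenotomy (log2 fold change 0.08, SE 0.20, adjusted p = 0.76). Summed over both copies the level was 383 and 358 CPM in sham and 322 and 365 CPM after tenotomy, so that the groups overlapped.

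The clamp loader, replication factor C, opens the PCNA ring and places it on DNA, and 2 of the 3 tested subunits were called higher, beside 25.8% of all tested genes. Both, Rfc1 and Rfc3, were under the level of the filter in at least 1 sham library. Rfc1, the large subunit, had 11 and 6 UMIs in sham against 37 and 39 after tenotomy, or 37.5 ± 14.6 and 87.6 ± 12.2 CPM (SD, n = 2), with a log2 fold change of 1.20 (SE 0.38, adjusted p = 0.017). Rfc3 had 4 and 3 UMIs in sham against 23 and 19 after tenotomy (log2 fold change 1.6, SE 0.51, adjusted p = 0.017). Both rose, but the call of Rfc1 was lost without sham replicate 2 (0.82, adjusted p = 0.17), and that of Rfc3 without sham replicate 2 (1.41, adjusted p = 0.11) or tenotomy replicate 1 (1.31, adjusted p = 0.24). Rfc2 had 4 and 7 UMIs in sham against 22 and 19 after tenotomy, or 24.6 ± 10.1 and 47.8 ± 13.2 CPM (SD, n = 2), with a log2 fold change of 0.93 (SE 0.47, adjusted p = 0.12). Rfc5 had 2 and 1 UMIs against 13 and 14, a ratio of 4.62 (1.42 to 23.8), and was not tested. Rfc4, with 0 and 1 UMIs against 1 and 2, was close to the limit of counting in every library.

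Polymerase alpha with primase starts each strand, and both were called higher, beside 25.8% of all tested genes. Pola1, its catalytic subunit, had 5 and 9 UMIs in sham against 24 and 39 after tenotomy, or 31.3 ± 13.4 and 70.7 ± 11.7 CPM (SD, n = 2), with a log2 fold change of 1.19 (SE 0.42, adjusted p = 0.027). Its call was lost without sham replicate 1 (0.77, adjusted p = 0.23) and without tenotomy replicate 2 (1.04, adjusted p = 0.14). Prim1, the primase that lays down the RNA primer, had 1 UMI in each sham library and 21 and 27 after tenotomy, a ratio of 12.3 (3.23 to 105) with an adjusted p of 2.8e-04. Pola2, the accessory subunit, had 2 and 1 against 12 and 17, a ratio of 4.96 (1.54 to 25.4) with an adjusted p of 0.0067, which was 0.15 without sham replicate 2. The groups did not overlap for these 3 genes, which passed the filter only with the help of the tenotomy libraries. Of all tested genes, 37.5% had both tenotomy libraries above both sham libraries.

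The genes of the bulk polymerases delta and epsilon gave 1 tested member, Pold3. This gene, an accessory subunit of polymerase delta, had 5 and 11 UMIs in sham against 18 and 19 after tenotomy, or 35.8 ± 19.8 and 42.6 ± 5.89 CPM (SD, n = 2), with a log2 fold change of 0.25 (SE 0.44, adjusted p = 0.68) that was -0.27 without sham replicate 1. Its groups overlapped. Pold1, the catalytic subunit of polymerase delta, had 1 and 3 UMIs against 13 and 10, a ratio of 2.95 (1.01 to 11.7). Pole, the catalytic subunit of polymerase epsilon, which copies the leading strand, had 0 in sham and 9 in each tenotomy library, at least 3.08-fold higher. Neither of the catalytic subunits passed the filter, and without it the adjusted p was 0.097 for Pold1 and 0.0014 for Pole.

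Rpa1 and Rpa2 encode subunits of replication protein A, which coats single-stranded DNA. Rpa1 had 7 and 5 UMIs in sham against 36 and 33 after tenotomy, or 26.6 ± 5.53 and 80.2 ± 18.9 CPM (SD, n = 2), with a log2 fold change of 1.56 (SE 0.42, adjusted p = 0.0064). Rpa2 had 8 and 11 UMIs in sham against 34 and 26 after tenotomy, or 42.3 ± 10.6 and 70.5 ± 25.3 CPM (SD, n = 2), with a log2 fold change of 0.70 (SE 0.41, adjusted p = 0.17). Neither gene's groups overlapped, but the second tenotomy library of Rpa2 (52.7 CPM) lay close to the second sham library (49.8 CPM), and without it the value was 1.10 (adjusted p = 0.047). The difference between the subunits was not tested.

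Of the genes of Okazaki fragment maturation and chromatin assembly, Lig1 was the only one tested. Lig1, the DNA ligase that seals Okazaki fragments, had 9 and 2 UMIs in sham against 53 and 59 after tenotomy. Its level was 24.1 ± 21.3 CPM in sham and 129 ± 13 CPM after tenotomy (SD, n = 2), with a log2 fold change of 2.37 (SE 0.42, adjusted p = 2.7e-04). The sham libraries differed from each other (39.2 and 9.06 CPM), and the fitted value was 3.74 without sham replicate 1 and 1.66 without sham replicate 2, past the threshold in both. Chaf1b, a subunit of the CAF-1 histone chaperone that deposits new histones behind the fork, had 0 UMIs in sham and 5 and 12 after tenotomy, at least 2.91-fold higher. Chaf1a, its large subunit, had 3 UMIs in 1 tenotomy library only, and Fen1, the nuclease that trims Okazaki fragments, had 1 UMI in 1 tenotomy library only.

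All 4 genes of nucleotide supply were tested and called higher, beside 25.8% of all tested genes, although Rrm2, Tyms and Tk1 passed the filter only with the help of the tenotomy libraries. They summed to 135 and 154 CPM in sham and to 637 and 620 CPM after tenotomy. Rrm2 (chr12:24708241-24714146, plus strand, GRCm38), the small subunit of ribonucleotide reductase, was the most often counted of the 50 genes. It had 5 and 8 UMIs in sham against 130 and 162 after tenotomy, or 29.0 ± 10.2 and 333 ± 7.04 CPM (SD, n = 2), with a log2 fold change of 3.51 (SE 0.29, adjusted p = 1.8e-07). Rrm1, the large subunit, had 18 and 13 UMIs in sham against 62 and 64 after tenotomy, or 68.6 ± 13.8 and 145 ± 22.3 CPM (SD, n = 2), with a log2 fold change of 1.06 (SE 0.28, adjusted p = 0.0061). The groups did not overlap for either subunit, and Rrm2 was at 338 and 328 CPM in the tenotomy libraries against 21.8 and 36.2 CPM in sham.

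Thymidine reaches DNA by synthesis and by salvage, and the genes of both routes rose. Tyms, the thymidylate synthase, had 0 and 1 UMIs in sham against 17 and 33 after tenotomy, a ratio of 25.6 whose lower 95% bound was 4.40, with an adjusted p of 2.6e-04. Its fitted log2 fold change of 4.46 was 3.51 without sham replicate 1 and 7.38 without sham replicate 2. Tk1, the thymidine kinase of the salvage route, had 8 and 12 UMIs in sham against 36 and 47 after tenotomy, or 44.6 ± 13.8 and 94.4 ± 1.11 CPM (SD, n = 2), with a log2 fold change of 1.08 (SE 0.35, adjusted p = 0.020). Without sham replicate 1 the call of Tk1 was lost (0.76, adjusted p = 0.18), as it was in DESeq2.

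None of the 6 genes of recombination and base excision repair passed the filter, and each had between 0 and 2 UMIs in each sham library. They summed to 13.1 and 18.1 CPM in sham and to 125 and 105 CPM after tenotomy. Brca2, which acts in repair by recombination, had 2 UMIs in each sham library and 13 and 7 after tenotomy, a ratio of 2.56 (0.859 to 10.3), and without the filter its adjusted p was 0.18. Ung, the glycosylase that removes uracil from DNA, had 1 and 0 UMIs against 7 and 15, a ratio of 11.3 (1.82 to 466) with an adjusted p of 0.0043 without the filter. Both tenotomy libraries were above both sham libraries for each of the 6 genes, beside 27.6% of all genes.

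Of the other repair genes, 3 were counted only after tenotomy. Rad51ap1 had 10 and 8 UMIs after tenotomy, and Blm, the helicase mutated in Bloom syndrome, had 6 and 12, so that each was at least 3.08-fold higher, with adjusted p-values of 0.0013 and 0.0014 without the filter. Brca1, which also acts in repair by recombination, had 6 and 4 UMIs, at least 1.71-fold higher, with an adjusted p of 0.050. Brip1, a helicase that binds BRCA1, had 0 and 2 UMIs in sham and 6 in each tenotomy library, a ratio of 3.08 (0.685 to 28.3) that was not past the threshold without the filter (adjusted p = 0.32).

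Of the 6 S-phase regulators 4 were tested, and 3 were called higher and 0 lower, beside 25.8% and 26.3% of all tested genes. The 3 called, Ccne1, E2f8 and Clspn, were under the level of the filter in both sham libraries. They had to be higher after tenotomy to be tested. Slbp, which binds the stem-loop of histone messages, had 19 and 14 UMIs in sham against 24 and 23 after tenotomy, or 73.1 ± 13.6 and 54.5 ± 11.2 CPM (SD, n = 2), with a log2 fold change of -0.44 (SE 0.35, adjusted p = 0.32). As UMIs per tube the value was 0.51. Its groups nearly touched, since the lower sham library was at 63.4 CPM and the higher tenotomy library at 62.4 CPM. Ccne1, the cyclin E that drives entry into S phase, had 4 and 1 UMIs in sham against 18 and 28 after tenotomy, or 11 ± 9.11 and 51.8 ± 7.0 CPM (SD, n = 2), with a log2 fold change of 2.20 (SE 0.55, adjusted p = 0.0040) that was 3.40 without sham replicate 1 and 1.53 without sham replicate 2. Its relative Ccne2 had 5 and 0 UMIs against 8 and 3, with overlapping groups and a ratio of 1.13 (0.361 to 4.14).

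E2F family members and claspin rose or were too scarce to test. E2f8, an atypical E2F that represses its targets late in S phase, had 3 and 0 UMIs in sham against 19 and 46 after tenotomy, a ratio of 11.1 (3.64 to 55.3) with an adjusted p of 9.0e-04. The fitted log2 fold change of 3.39 was 7.74 without sham replicate 1 and 2.42 without sham replicate 2. E2f1, an activator of S-phase genes, had 1 and 3 UMIs against 10 and 19, a ratio of 3.72 (1.31 to 14.6), and did not pass the filter (adjusted p = 0.026 without it). Clspn, the mediator of the replication checkpoint, had 2 UMIs in each sham library and 12 and 16 after tenotomy, a ratio of 3.59 (1.26 to 14.1) with an adjusted p of 0.016. The call of Clspn was lost without either sham library, with adjusted p-values of 0.19 and 0.17.

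The tenotomy libraries were close to each other across the set. For 34 members with at least 20 tenotomy UMIs, the log2 ratio of the second to the first tenotomy library in CPM had a median of -0.14 and ran from -1.25 for Brca2 to 0.92 for E2f8. It was within 1 for 33 of the 34 genes and within 0.5 for 24. Over all genes, the chi-square per degree of freedom between libraries was 1.31 within sham and 1.5 within tenotomy, and 6.34 to 7.86 between the groups.

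Fold changes were not even across abundance. When tested genes were cut into 10 groups by mean abundance, the lowest group had a median log2 fold change of 0.53 with 38.0% called higher, and the highest group had -0.74 with 5.81% called higher. The 28 tested members lay in the lower 9 groups. With the trend over abundance taken out by offsets, 17 of the 28 were called higher, beside 21.9% of all tested genes, and 0 lower, beside 26.4%. The calls lost were those of Cdt1 (adjusted p = 0.22), Mcm4 (0.13), Rfc3 (0.12), Pola1 (0.11) and Clspn (0.11).

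**Figure D3:**
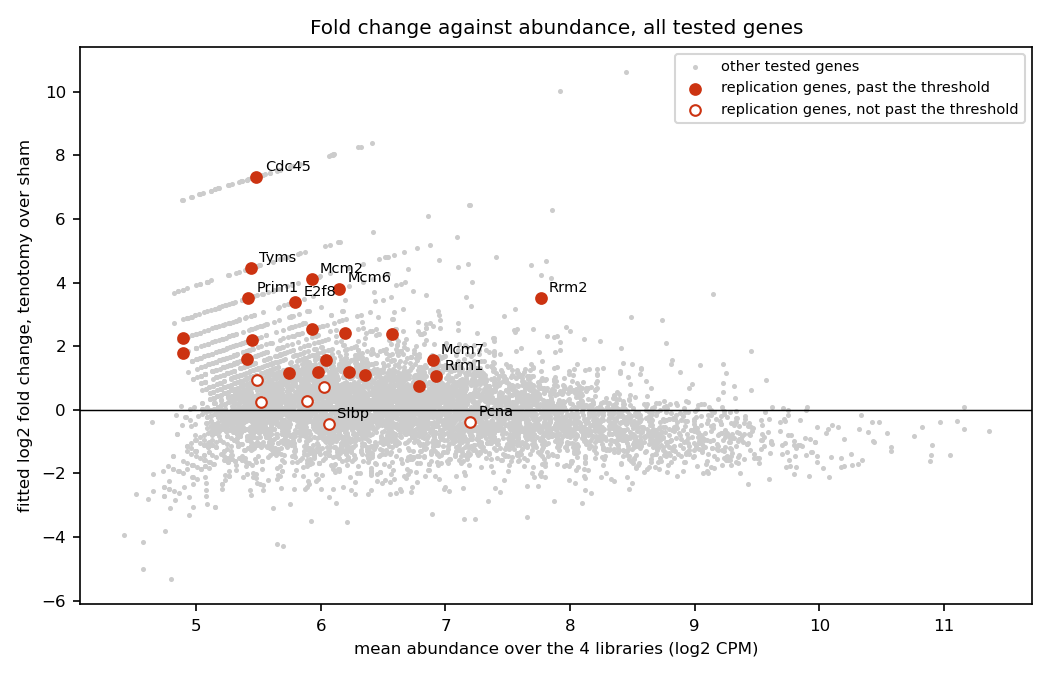
Fitted log2 fold change, tenotomy over sham, against mean abundance in log2 CPM for the 7228 tested genes (grey), with the 28 tested replication genes in red, filled where past the threshold. The grey cloud slopes downward as abundance grows, no replication gene lies in the most abundant of 10 groups, and Rrm2 is at 3.51.

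The rest of the replication pathway was given by a list of 86 further genes, of which 82 were in the table. Of these 42 were tested, 24 were called higher, 4 lower and 14 not called, beside 25.8% higher and 26.3% lower of all tested genes, with a median log2 fold change of 1.26. In 28 of the 42 at least 1 sham library was under the level of the filter, and in 21 both were. Both tenotomy libraries were above both sham libraries for 54 of the 82, beside 27.6% of all genes. The most often counted of those called higher was Pclaf (listed as 2810417H13Rik), which encodes a PCNA-binding factor, with 2 and 0 UMIs in sham against 95 and 87 after tenotomy, a ratio of 46.7 (12.7 to 388) with an adjusted p of 9.5e-07. Dut, which hydrolyses dUTP, had 7 and 2 UMIs in sham against 68 and 87 after tenotomy (log2 fold change 3.12, SE 0.38, adjusted p = 7.0e-06). E2f2, an activator E2F, had 10 and 3 against 51 and 83 (2.38, SE 0.38, adjusted p = 1.1e-04), and Topbp1, a scaffold of helicase activation and the checkpoint, had 13 in each sham library against 54 and 77 (1.36, SE 0.28, adjusted p = 9.7e-04). The groups of these 4 genes, picked from those called higher, did not overlap. Among all tested genes, 37.5% had both tenotomy libraries above both sham libraries. With sham replicate 1 or 2 left out, the fitted value was 9.25 or 4.49 for Pclaf, whose main value was 5.44, 4.20 or 2.48 for Dut, and 3.42 or 1.76 for E2f2. Cdk2, the kinase partner of cyclin E, had 21 and 15 against 44 and 62 (0.59, SE 0.28, adjusted p = 0.096), a call that was lost in most alternatives, including each one without a library (adjusted p between 0.11 and 0.48).

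The 4 lower genes of that list were Nasp, Pole4, Pold4 and Msh6. Nasp, a histone chaperone, had 64 and 58 UMIs in sham against 72 and 76 after tenotomy, or 271 ± 11.2 and 171 ± 23.5 CPM (SD, n = 2), with a log2 fold change of -0.68 (SE 0.20, adjusted p = 0.0096). Pole4 and Pold4 encode the smallest subunits of polymerases epsilon and delta. Pole4 had 49 and 32 UMIs in sham against 32 and 57 after tenotomy (-0.83, SE 0.26, adjusted p = 0.015), and Pold4 had 29 in each sham library and 26 and 28 after tenotomy (-1.06, SE 0.29, adjusted p = 0.0068). Msh6, of the mismatch repair pair that follows the fork, had 19 and 35 UMIs in sham against 12 and 17 after tenotomy (-1.85, SE 0.37, adjusted p = 7.6e-04). The groups did not overlap in CPM for any of the 4, and 35.4% of all tested genes had both tenotomy libraries below both sham libraries. As UMIs per tube Nasp was at 0.28 and Pole4 at 0.14, neither past the threshold, and Pold4 was at -0.10. The call of Nasp was lost without tenotomy replicate 2 (-0.49, adjusted p = 0.11) and that of Pole4 without sham replicate 1 (-0.56, adjusted p = 0.20).

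Genes of mitosis, which follows S phase, were measured in the same libraries. A list of 34 mitotic genes summed to 97 and 102 UMIs in sham and to 1440 and 1757 UMIs after tenotomy. Of the 29 tested, 28 were called higher and 1 (Smc4) was not called, beside 25.8% of all tested genes called higher, with a median log2 fold change of 4.29, or 4.03 with genes at 0 in sham set at their bound. Of these 29, 26 were under the level of the filter in both sham libraries and so had to be higher after tenotomy to be tested. The mitotic share rose from 3.76 ± 0.226 to 36.7 ± 0.552 per 10000 UMIs (SD, n = 2), a ratio of 9.78 beside 3.44 for the 50 replication genes. The number of replication UMIs per mitotic UMI was 2.45 and 1.94 in the sham libraries and 0.780 and 0.759 in the tenotomy libraries, so that the groups did not overlap (two-sided exact permutation p = 0.33, the smallest possible).

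Markers of the sorted cells and of other cell types were read beside these results. All 10 satellite cell markers were detected in every library, among them Pax7 with 118 and 107 UMIs in sham (514 and 485 CPM) against 108 and 137 after tenotomy (281 and 277 CPM), which was called lower, and Sdc4 was the most abundant. They summed to 6268 and 5291 CPM in sham and to 4397 and 3896 CPM after tenotomy, with 6 of the 10 called lower and 2 higher, beside 26.3% and 25.8% of all tested genes. The 12 leukocyte markers summed to 8.71 and 31.7 CPM in sham and to 224 and 450 CPM after tenotomy, with 11 of 12 higher in both tenotomy libraries, beside 27.6% of all genes, and 8 of 12 at 0 in both sham libraries. Their most abundant gene was Lyz2 (0, 0, 17 and 38 UMIs). Ptprc, with 0, 1, 1 and 4 UMIs, was the 1 marker of the 12 whose groups overlapped. The 2 tested leukocyte markers were called higher, beside 25.8% of all tested genes, and were under the level of the filter in both sham libraries.

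The RNA of the marker lists of other types moved as well. The 6 endothelial markers summed to 47.9 and 31.7 CPM in sham and to 294 and 239 CPM after tenotomy. Of the 6, 4 were higher in both tenotomy libraries, beside 27.6% of all genes, and the groups of 2 overlapped. Fabp4 was the most abundant, and Pecam1 had 4, 2, 11 and 7 UMIs. The 2 tested were called higher, beside 25.8% of all tested genes, and were under the level of the filter in both sham libraries. The 6 mural markers, led by Acta2, summed to 753 and 689 CPM in sham and to 1193 and 1345 CPM after tenotomy. Of the 6, 4 were higher in both tenotomy libraries, beside 27.6% of all genes. Of the 3 tested, 2 were called higher and Tagln was called lower, beside 25.8% and 26.3% of all tested genes. Myh11 had 0, 0, 0 and 3 UMIs. The 6 myofiber markers, led by Acta1, summed to 1476 and 824 CPM in sham and to 2478 and 2242 CPM after tenotomy. Of the 6, 5 were higher in both tenotomy libraries, beside the same 27.6%. The 5 tested were called higher, beside 25.8% of all tested genes. The 6 fibro-adipogenic markers, led by Col15a1, summed to 1632 and 1640 CPM in sham and to 780 and 763 CPM after tenotomy, with Pdgfra at 0, 0, 2 and 0 UMIs. The 3 tested were called lower, beside 26.3% of all tested genes. Leukocytes and endothelial cells can divide. The sort by YFP was for cells where the Pax7-driven Cre had acted, and markers of these types were counted in the sorted tubes of both groups. The part of other cell types in the rise of the replication genes was not tested. In the 2 tenotomy libraries the leukocyte sum was 224 and 450 CPM, and the sum of the replication genes was 2920 and 2699 CPM. Whether these sums are related was not tested, and 2 libraries cannot show it.

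**Figure D4:**
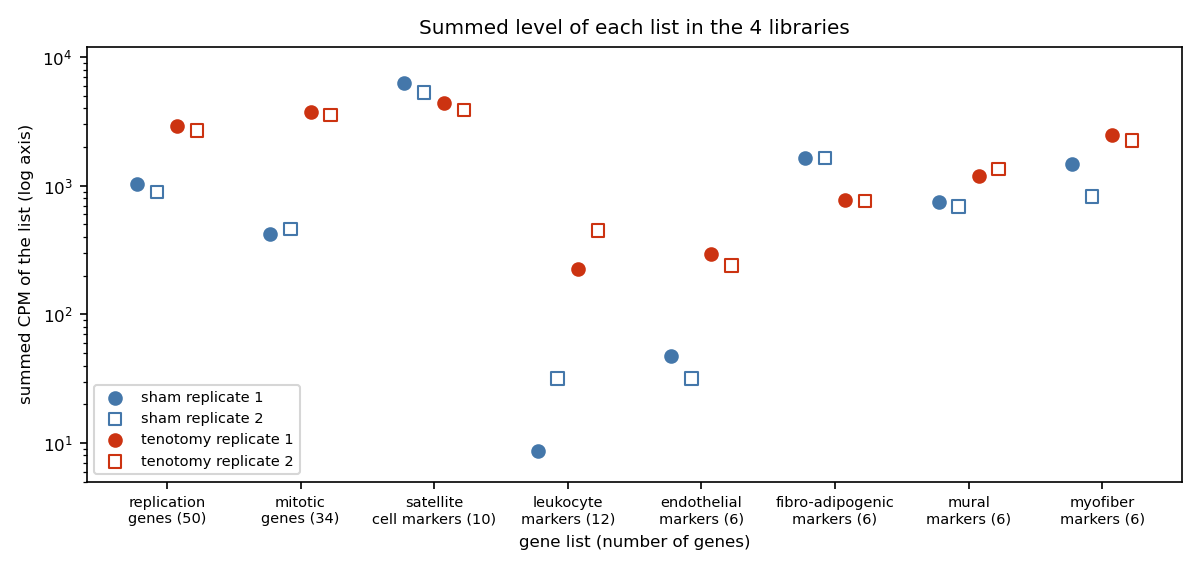
Summed CPM (log axis) of the 50 replication genes, the mitotic genes and 6 marker lists in each of the 4 libraries, with blue for sham and red for tenotomy. The replication genes stand at 1036 and 897 CPM in sham and 2920 and 2699 CPM after tenotomy, and the satellite cell markers remain the highest list in every library.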

How the data were processed

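MuSCs were sorted by YFP and sequenced by CEL-Seq2 in 4 libraries (2 sham, 2 tenotomy). The authors extracted barcodes and UMIs with UMI-tools (version 1.0.0), aligned reads to GRCm38 with HISAT2 (2.1.0), assigned them to genes with featureCounts (1.6.4) and, per the submitters' processing notes, used DESeq2 (1.22.2). The deposited values are raw counts of UMIs per gene. The annotation release and strand setting are not given in the sources used here, so counts of genes that overlap a gene on the other strand, 18 of the 50, are uncertain.

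Counts were scaled by TMM and filtered with filterByExpr (minimum count 10, minimum total 15, on unscaled library sizes), and fitted with glmQLFit and glmQLFTest of edgeR (4.0.16, R 4.3.3) on surgery alone, with adjustment by Benjamini-Hochberg over 7228 genes and a threshold of 0.1. The common biological coefficient of variation was 9.50%, and the prior count 0.125. Genes without sham counts are bounded against 3 UMIs over the group, and genes with 1 to 3 get the ratio of counts with its 95% Clopper-Pearson interval. Orc2, Ccne2, Clspn, E2f1, Brca2 and Pold1, with more than 3, are given this ratio too. Named in full were, by role, the 3 most counted members, members called lower and those with overlapping groups, and of the other list the 5 most counted called higher and up to 5 called lower. Some further members were given with their statistics after their values were seen. The members and lists were chosen with earlier results of these data known.

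Alternatives were other scalings, filters, DESeq2 (1.42.0), limma-voom (limma 3.58.1), thinning, a replicate block, a threshold of 0.05 and leaving out each library. Positions come from GENCODE M21 (GRCm38), in which all 50 genes matched. Python 3.11.15, numpy 2.4.6, pandas 2.3.3, scipy 1.17.1 and matplotlib 3.10.9 were used.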

Additional observations from a re-analysis of the deposited data

How the results depend on the processing

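The 22 of 28 members called higher were 34 of 50 without the filter and 18 of 40 in DESeq2. Of the same 28, 24 were called with library sizes alone, 26 as UMIs per tube, 17 with abundance offsets and 22 in limma-voom. In these settings 0 members were lower. Over all 7228 tested genes, 1868 were higher and 1898 lower. With library sizes alone these were 2694 and 1351, as UMIs per tube 4481 and 331, with abundance offsets 1583 and 1909, and in limma-voom 1741 and 1936. Without the filter they were 2451 and 1803 of 19353 genes, and in DESeq2 967 and 1215 of 10348. The other replication genes called higher were 24 of 42, with 34 as UMIs per tube and 19 of 68 in DESeq2. Those called lower went from 4 to 1 as UMIs per tube and 2 in DESeq2. The members' median log2 fold change of 1.58 was 1.86 with library sizes alone, 2.53 as UMIs per tube, 1.27 with abundance offsets, 2.25 without the filter, 1.86 in DESeq2 and 1.36 to 1.92 with a library left out, while the median of all genes was 0.33, 1.01, -0.05, 0.30 and 0.10 in the first 5. The ratio of summed levels was 5.63 per tube and 3.20 to 3.72 with a library left out. The sign turned for Orc6 (-0.062) and Pold3 (-0.24) with abundance offsets, for Pold3 with a library left out (-0.27 to 0.91, the former without sham replicate 1), and as UMIs per tube for Pcna (0.58), Slbp (0.51), Nasp (0.28) and Pole4 (0.14). The cause was not tested. Of 549 values of single genes 490 kept direction and side of the threshold, and 14 members kept their call in every alternative that tested them (Ccne1, Cdc45, E2f8, Lig1, Mcm2, Mcm3, Mcm5, Mcm6, Mcm7, Prim1, Rpa1, Rrm1, Rrm2 and Tyms), while Cdt1, Clspn, Mcm4, Pola1, Pola2, Rfc1, Rfc3 and Tk1 lost theirs in DESeq2. Of the 14, Ccne1, Cdc45, E2f8, Mcm2, Mcm3, Mcm5, Mcm6, Prim1, Rpa1 and Tyms were under the level of the filter in both sham libraries. These had to be higher after tenotomy to be tested in the main fit. The share of all called genes that kept their call was not counted. Same-numbered libraries did not deviate together (correlation -0.03 over 7228 genes), and with a replicate block 22 members, 23 other genes and a median of 1.61 were found. Sham depth limits the scarce members: 3 UMIs were 13.1 and 13.6 CPM.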

Other observations

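Within the MCM ring the balance of messages differed between groups. This was chosen after the values were seen. Mcm4 and Mcm7 made up 56 of the 75 UMIs of Mcm2 to Mcm7 in sham, 74.7% (95% exact binomial interval 63.3 to 84.0), and 242 of 554 after tenotomy, 43.7% (39.5 to 47.9). By library the share was 79.1% and 68.8% in sham and 39.8% and 46.9% after tenotomy. Mcm7 overlaps Cops6 at its 3′ end on the other strand, and Cops6 had 6, 4, 67 and 88 UMIs, so its share is uncertain.

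The subunits of ribonucleotide reductase shifted too, also chosen after the values were seen. Rrm2 made up 13 of 44 UMIs of Rrm1 and Rrm2 in sham, 29.5% (16.8 to 45.2), and 292 of 418 after tenotomy, 69.9% (65.2 to 74.2). By library the share was 21.7% and 38.1% in sham and 67.7% and 71.7% after tenotomy. Rrm2 alone was 2.98% of the UMIs of the 50 genes in sham and 11.9% after tenotomy. Without the 3 most counted members (Rrm2, Pcna and Rrm1) the summed ratio between groups was 3.70. The ratio of counts was 11.5 for Rrm2, 0.77 for Pcna and 2.08 for Rrm1, so that value does not show the part of Rrm2 alone.

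Several of the scarce members share their 3′ end with a neighbour. In GENCODE M21, 9 members have an exon of another gene within their last 500 transcript bases (Orc2, Mcm7, Gins2, Rfc4, Rfc5, Fen1, Chaf1a, Slbp and Ccne2). Their median total was 19 UMIs (1 to 156), while the other 41 had a median of 51 UMIs (3 to 305), and 2 of the 9 and 26 of the 41 passed the filter. Whether reads in such overlaps were dropped was not tested.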
